A study of Mus musculus with 12 samples.

Results

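A set of 40 genes of glycolysis and the pentose phosphate pathway was followed in pre-B cell lines with and without BCR-ABL1. The members were taken by name, for their place in glucose metabolism, from the 51826 genes in the table, by a rule that uses no measured value. Earlier results of these data were known when the members were chosen. They cover glucose uptake (2 genes), hexokinases (3), upper glycolysis from glucose phosphate to triose phosphate (7), lower glycolysis from triose phosphate to pyruvate (7), lactate formation and export (4), the PFKFB enzymes (4), pyruvate entry into the mitochondrion (8), the pentose phosphate pathway (4) and gluconeogenesis (Fbp1). Of the 40 genes, 37 had enough reads to be tested. Eno2, Ldhb and Pdk4 did not.

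The study asked which genes change when the fusion kinase BCR-ABL1, the product of the Philadelphia chromosome, transforms early B cells. Bone marrow cells of 2 C57BL/6 mice were grown with IL7 for 7 days, and the pre-B cells of each mouse were then given either an empty retroviral vector (EV, pMIG in the sample names) or a retroviral vector with BCR-ABL, in 3 lines per vector and mouse. The growth protocol speaks of triplicates from 3 independent experiments, and no label says which line came from which experiment. All 12 lines stayed in IL7 for a further 48 hours. After 1 further week in medium free of IL7 the 6 BCR-ABL1 lines counted as transformed. The medium of the 6 EV lines still held IL7 over a comparable period, and a GFP sort followed. BCR-ABL1 and the loss of IL7 therefore cannot be told apart in these lines, and the GFP sort was described for EV lines alone. Lines of 1 mouse share the animal, so that p-values measure the spread among lines of 2 mice. Lines are named by mouse number and letter, from 1A to 2C.

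Total counts were 34791011 to 64547911 in EV lines and 45230023 to 66011225 in BCR-ABL1 lines. All 13 B-lineage markers were tested, with a summed level of 2980 to 5159 CPM (counts scaled by TMM to a common library size) with EV and 3087 to 4116 CPM in BCR-ABL1 lines. Among them Dntt was higher in BCR-ABL1 lines (log2 fold change 4.30 ± 1.25, SE, FDR 0.0396) and Il7r was lower (-1.06 ± 0.13, FDR 0.00328). The Dntt call was lost with the mouse as block (FDR 0.0533), and its change was 9.40 in mouse 1 and 2.06 in mouse 2 lines (interaction FDR 0.00427). With all lines none of the 10 myeloid and 6 stromal markers reached the level for testing, and their sums were at most 1.78 and 1.87 CPM. In mouse 2 lines alone Lyz2, at most at 0.385 CPM, was called higher (3.75, glmTreat FDR 0.0407), against 3.99% of all genes. Without EV 2C 1 stromal marker was called lower, against 9.35%. The 8 T and NK markers summed to 11.2 to 42.0 CPM with EV and 0.664 to 4.77 CPM in BCR-ABL1 lines, most of it from Trac in the EV lines, while Cd3e was at 0 in every BCR-ABL1 line and at most 0.123 CPM in EV lines. The line EV 2C stood apart from its companions: the chi-square per gene against EV 2A and EV 2B was 270 and 434, against 60.3 between those 2. BCR-ABL1 2A stood apart as well, at 78.1 and 67.5 against BCR-ABL1 2B and 2C, with 17.7 between these. Without BCR-ABL1 2A the calls of Slc2a1, Pgam1, Pdk1 and Fbp1 were lost. Members whose call with BCR-ABL1 in the 1.5-fold test changed without EV 2C are given with and without that line.

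Glycolysis splits a glucose molecule into pyruvate in the cytosol, yielding ATP and NADH. Pyruvate is then either reduced to lactate and exported, which regenerates NAD, or taken up by mitochondria and oxidised, a step that the pyruvate dehydrogenase kinases restrain. The pentose phosphate pathway branches off after the hexokinase step and supplies NADPH and ribose for nucleotides. Proliferating and transformed lymphocytes are known for high glucose uptake and lactate release, and many genes of glycolysis are known targets of the hypoxia-inducible factors and of MYC, whose binding sites share a short core of letters.

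Promoter sequences of members that rose are shown first, with the letters of that core marked. RefSeq windows (GRCm38.p6) were matched by symbol for 38 of the 40 members, all but Slc2a3 and Pdp1, and the 250 bases upstream of the start were searched on both strands. Several members had more than 1 RefSeq window, among the called ones Pfkm (4), Eno1 (3) and Pkm, Ldha and Pdk1 (2 each). For each member 1 window was searched, so the matches depend on that start. The letters searched were ACGTG, the core of the hypoxia response element. The E-box CACGTG was searched too, and since it holds the shorter core on either strand it counts as 2 matches of that core. The last was the GC box, GGGCGG. The hypoxia core stood in the windows of 6 (54.5%) of the 11 members called higher with BCR-ABL1. The 6 were Slc2a1, Pfkm, Pgk1, Pgam1, Ldha and Slc16a3. Of all tested genes 5.99% were called higher. It stood in 6 of 24 windows of members that were tested and not called (25%). Among all RefSeq genes it stood in 16.6% of 27025 windows, and among the genes tested here in 22% of 9623. The E-box stood in 2 of the 11 windows (18.2%), against 8.39% of tested genes, and the GC box in 8 of 11 (72.7%), against 58.9%. A match describes the letters alone, the members were few, and no test was made. The first 20 bases after the RefSeq start were found in a GENCODE transcript of the gene for 29 of the 38 windows. Not among them were Pgam1, Eno1 and Ldha of the called members and Eno3, Slc16a1, Pfkfb2, Pdk2, Pdha1 and Taldo1 of the others. The windows of the 4 called members with at least 2 matches are printed 5′ to 3′ on the plus strand of the chromosome, with each match of the hypoxia core, on either strand, in capitals. They are Pfkm at chr15:98092339-98092588, Pgk1 at chrX:106186850-106187099, Ldha at chr7:46845554-46845803 and Slc16a3 at chr11:120948817-120949066.
Pfkm: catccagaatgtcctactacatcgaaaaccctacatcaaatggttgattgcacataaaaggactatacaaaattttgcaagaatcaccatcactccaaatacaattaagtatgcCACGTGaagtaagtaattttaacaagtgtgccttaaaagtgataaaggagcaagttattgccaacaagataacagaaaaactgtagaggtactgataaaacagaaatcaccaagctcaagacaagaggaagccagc
Pgk1: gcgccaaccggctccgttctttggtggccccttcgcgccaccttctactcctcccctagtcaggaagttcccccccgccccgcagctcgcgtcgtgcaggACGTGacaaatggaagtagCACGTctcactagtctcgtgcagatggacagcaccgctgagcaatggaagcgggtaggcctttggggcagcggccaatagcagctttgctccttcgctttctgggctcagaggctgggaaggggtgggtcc
Ldha: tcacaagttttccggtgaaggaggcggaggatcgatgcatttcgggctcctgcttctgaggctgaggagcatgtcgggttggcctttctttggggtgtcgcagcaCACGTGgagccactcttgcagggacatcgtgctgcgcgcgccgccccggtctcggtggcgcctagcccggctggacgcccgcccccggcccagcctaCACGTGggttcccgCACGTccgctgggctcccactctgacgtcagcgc
Slc16a3: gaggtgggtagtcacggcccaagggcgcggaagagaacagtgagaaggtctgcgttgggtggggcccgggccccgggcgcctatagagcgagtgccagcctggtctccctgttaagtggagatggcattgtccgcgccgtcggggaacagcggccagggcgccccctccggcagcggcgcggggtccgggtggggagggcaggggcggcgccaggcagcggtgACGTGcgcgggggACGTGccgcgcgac

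In the Ldha window the 5 matches began 145, 144, 48, 47 and 34 bases upstream of the start and included an E-box at each of the pairs 145 and 144 and 48 and 47. The single E-box of Pfkm gave its matches at 136 and 135 bases. In Pgk1 they lay 150 and 131 bases upstream and in Slc16a3 27 and 14 bases upstream. Among members that were not called, Hk2 carried 2 matches, at 226 and 52 bases, and Slc16a1 (200 and 199 bases) and Pdk2 (126 and 125 bases) each held 1 E-box. Hk3, Pfkfb3 and Pdk3 carried 1 match each.

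Across the pathway, the genes called higher with BCR-ABL1 were 4 of 6 tested genes of lower glycolysis, 2 of 3 of the lactate step, 2 of 7 of upper glycolysis, 1 of 2 glucose transporters, 1 of 7 genes of pyruvate entry and Fbp1. No hexokinase, PFKFB or pentose phosphate gene was called. By edgeR's glmTreat against a 1.5-fold change at a false discovery rate (FDR) of 0.05, 11 of the 37 tested members were higher and 0 were lower. Over all 15038 genes tested these calls were made for 5.99% and 6.49%. The 11 genes were Slc2a1, Pfkm, Tpi1, Pgk1, Pgam1, Eno1, Pkm, Ldha, Slc16a3, Pdk1 and Fbp1. DESeq2 called 8 members higher and 0 lower, against 5.29% and 4.33% of all genes. In the 1.5-fold test no member was lower at an unadjusted p under 0.05, where 1689 of all 15038 genes were. Against no change 3 members (Eno3, Pfkfb4 and Mpc2) were lower at an unadjusted p under 0.05, where 4454 of the 15038 genes were. Of these 3, Eno3 passed at the FDR (0.00761), as did 25.9% of all genes on the lower side. With the mouse as block the same 11 members were called, against 7.49% of all genes higher and 7.18% lower. With the line name as block 8 were, against 6.14% and 5.09%, and Slc2a1, Pgam1 and Fbp1 lost their calls. The median log2 fold change was 0.51 over the 37 members and -0.02 over all tested genes, and it was above 0 in 28 of 37 members and in 7258 of 15038 genes. BCR-ABL1 lines lay above all EV lines, without overlap, in 16 of the 37 members and below them in 0. Over all tested genes these shares were 12.1% and 13.5%. Genes such as Slc16a3 and Fbp1 passed the filter on low counts only through their reads in BCR-ABL1 lines. The counts above include both, so they describe the genes tested and not the pathway as a whole. In bulk RNA, fewer cells that make a transcript and less of it per cell cannot be told apart.

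**Figure D1:**
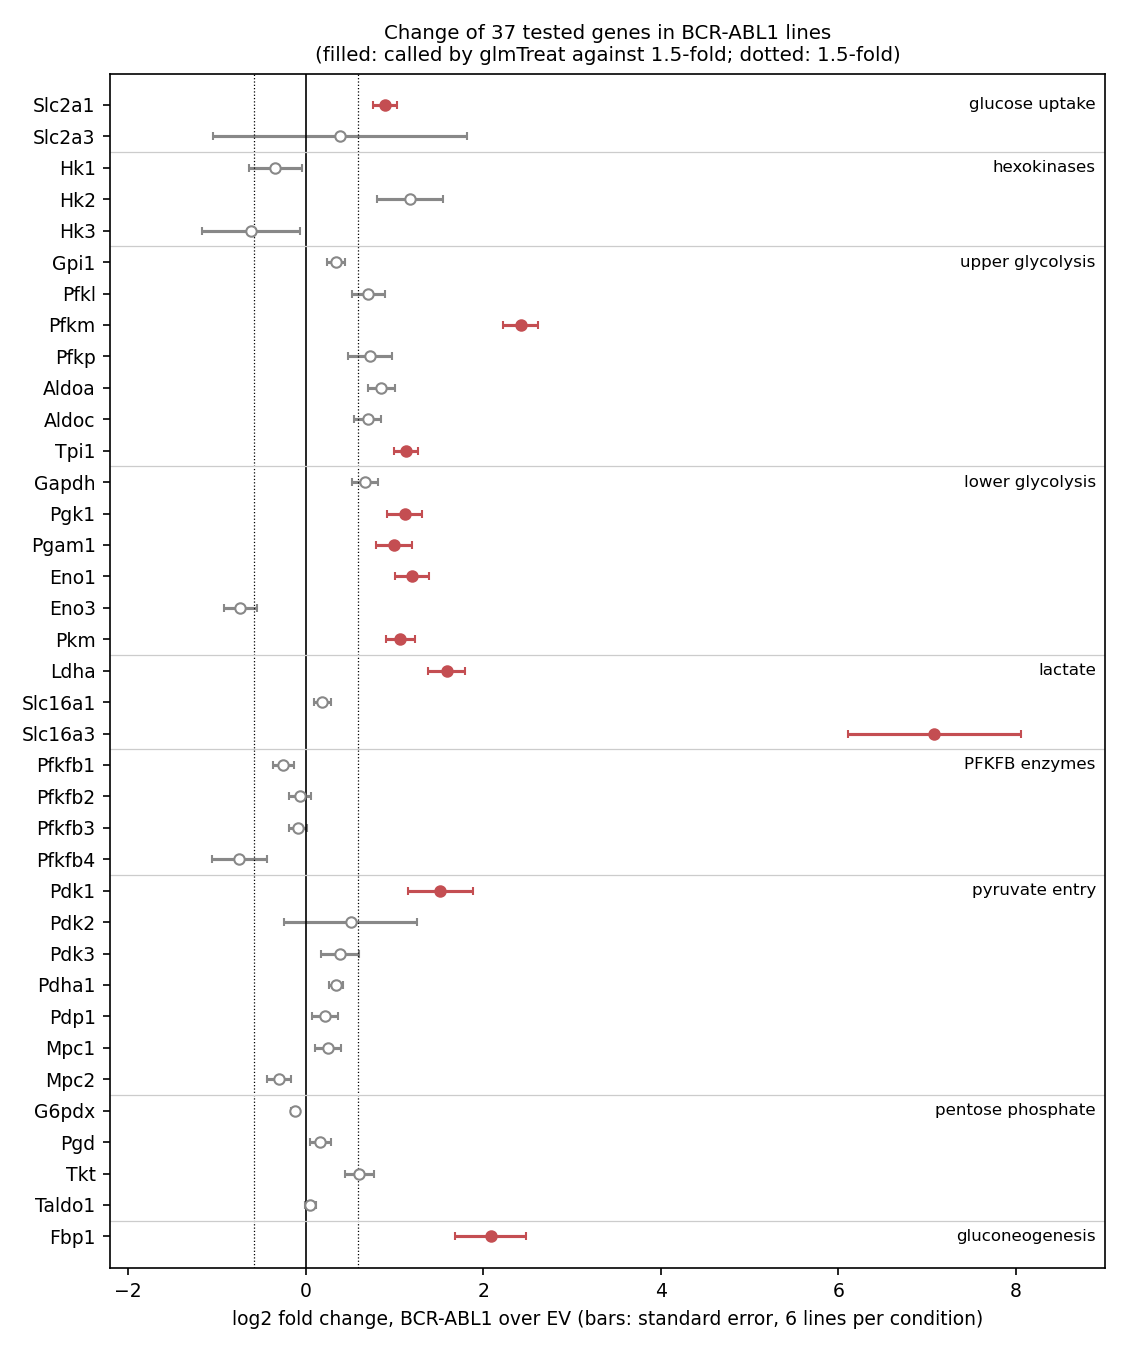
Log2 fold change of each of the 37 tested genes in BCR-ABL1 over EV lines (x axis, bars are standard errors, 6 lines per condition), in pathway order from top to bottom. Filled points are the 11 genes called higher, and dotted lines mark a 1.5-fold change. In lower glycolysis Pgk1, Pgam1, Eno1 and Pkm lie between 0.99 and 1.19, Gapdh lies at 0.67 and Eno3 at -0.73. Slc16a3 lies at 7.08, the 4 PFKFB genes lie between -0.75 and -0.06, and the pentose phosphate genes between -0.12 and 0.60.

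Of the glucose transporters, Slc2a1 rose. Slc2a1, which encodes the widely expressed transporter GLUT1, was at a lowest of 10.5, a median of 13.4 and a highest of 15.3 CPM with EV and at 20.1, 23.3 and 29.7 CPM in BCR-ABL1 lines. The conditions did not overlap, and the mouse 2 lines with BCR-ABL1 (26.2 to 29.7 CPM) lay above those of mouse 1 (20.1 to 20.4 CPM). Slc2a1 changed by a log2 fold change of 0.90 ± 0.13 (SE, n = 6 per condition, glmTreat FDR 0.0386). This call was close to the threshold: without EV 1B, 1C, 2A or 2B, or without BCR-ABL1 2A, 2B or 2C, it was lost, with an FDR up to 0.0969, and DESeq2 did not make it (adjusted p = 0.161). The call was also lost with the line name as block, without a gene filter and in the likelihood ratio fit. With mouse 1 alone the change was 0.60 and not called (FDR 0.485), and with mouse 2 alone it was 1.19 (FDR 0.0471). This difference between the mice had an interaction FDR of 0.0602 with all lines and 0.00016 without EV 2C. Slc2a3, the high-affinity transporter GLUT3, differed in level between the mice and was higher with BCR-ABL1 in mouse 2 lines (glmTreat FDR 0.00908 there). With mouse 1 it was at 16.2 to 18.3 CPM for EV and 18.6 to 20.4 CPM for BCR-ABL1, and with mouse 2 at 0.162 to 0.491 CPM for EV and 2.43 to 4.03 CPM for BCR-ABL1. The change was larger in mouse 2 than in mouse 1 by 3.33 on the log2 scale (glmQLFTest of the interaction, FDR 0.000196).

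The hexokinases commit glucose to the cell. None of the 3 genes was called by glmTreat, against 5.99% of all genes higher and 6.49% lower. In the 1.5-fold test 1 was higher at an unadjusted p under 0.05, as were 1473 of all 15038 genes. DESeq2 called 0, against 5.29% and 4.33%. Hk2, the inducible isozyme, had a lowest of 13.8, a median of 34.7 and a highest of 82.9 CPM with EV and 61.6, 86.5 and 94.2 CPM in BCR-ABL1 lines. The overlap came from EV 2C alone, which at 82.9 CPM lay among the BCR-ABL1 lines. The other 5 EV lines were at most 37.2 CPM. For Hk2 the log2 fold change was 1.18 ± 0.37 (SE, FDR 0.117) with all lines and 1.58 (FDR 0.00332) without EV 2C. Hk1, the constitutive isozyme, ranged from 15.3 to 47.9 CPM with EV and from 19.5 to 42.4 CPM in BCR-ABL1 lines, and EV 2C had its lowest level. Hk3 was below 1 CPM in every line. As a share of length-corrected hexokinase reads, Hk2 made up 54.2% ± 19.5 (SD, n = 6) in EV and 79.9% ± 6.94 in BCR-ABL1 lines, with 88.4% in EV 2C and 34.4 to 58.9% in the other EV lines.

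In upper glycolysis Pfkm showed the largest change. The phosphofructokinases catalyse the committed step of the pathway, and Pfkm encodes the muscle type. Pfkm was at a lowest of 1.19, a median of 1.81 and a highest of 2.26 CPM with EV and at 7.23, 9.90 and 12.1 CPM in BCR-ABL1 lines, with no overlap. This came to a log2 fold change of 2.42 ± 0.19 (SE, FDR 2.42e-05), which was called in every alternative fit. It was larger in mouse 2 lines (2.89) than in mouse 1 lines (1.93), with an interaction FDR of 0.0256. A gene on the same strand, Gm26513, shares 341 bases with Pfkm. Likewise on the same strand, Gm49759 shares 767 bases with Pkm and Gm29427 shares 1262 bases with Pfkfb2. Despite this rise Pfkm remained the least abundant of the 3 isozymes per length, at 3.01 to 3.91% of phosphofructokinase reads in EV and 9.44 to 12.4% in BCR-ABL1 lines.

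Pfkl, the liver type and the most abundant phosphofructokinase per length, had a lowest of 53.4, a median of 58.9 and a highest of 77.8 CPM with EV and 71.5, 97.9 and 153 CPM in BCR-ABL1 lines. Pfkp, the platelet type, was at 36.6, 82.1 and 99.4 CPM with EV and at 113, 125 and 135 CPM in BCR-ABL1 lines. Pfkl overlapped between conditions and Pfkp did not, but neither passed the 1.5-fold test (log2 fold change 0.71 ± 0.19, FDR 0.391, and 0.73 ± 0.25, FDR 0.409). Pfkp differed between the mice (interaction 0.89, FDR 0.0246): EV lines of mouse 2 were at 36.6 to 66.9 CPM and those of mouse 1 at 97.3 to 99.4 CPM.

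Triose phosphate isomerase, which interconverts the products of aldolase, rose. Its gene Tpi1 had a lowest of 111, a median of 136 and a highest of 146 CPM with EV and 226, 278 and 412 CPM in BCR-ABL1 lines. The lines did not overlap, the highest was BCR-ABL1 2A, and the log2 fold change was 1.13 ± 0.13 (SE, FDR 0.00216). Gpi1, Aldoa and Aldoc were also higher in every BCR-ABL1 line than in any EV line, without passing the 1.5-fold test. Gpi1, glucose phosphate isomerase, was at 165, 221 and 258 CPM with EV and at 263, 273 and 286 CPM in BCR-ABL1 lines (log2 fold change 0.34 ± 0.10, FDR 1). Aldoa, the main aldolase here with 99.0 to 99.5% of aldolase reads per length in every line, was at 123, 162 and 248 CPM and at 269, 304 and 343 CPM. Its log2 fold change was 0.85 ± 0.15 (FDR 0.0781), and 1.00 with an FDR of 0.00132 when EV 2C, its highest EV line, was left out. Aldoc, the brain aldolase, stayed below 3 CPM, at 1.07, 1.49 and 1.79 CPM with EV and 1.86, 2.44 and 2.92 CPM in BCR-ABL1 lines (log2 fold change 0.70 ± 0.15, FDR 0.397). When the same fit was tested against no change instead of a 1.5-fold change, all 7 genes of upper glycolysis were higher and 0 were lower, against 22.5% and 25.9% of all tested genes.

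In lower glycolysis 4 of 6 tested genes were called higher, against 5.99% of all genes. They serve consecutive steps after Gapdh, which was not called. Pgk1, phosphoglycerate kinase, forms the first ATP of this stage. It was at a lowest of 138, a median of 211 and a highest of 339 CPM with EV and at 390, 449 and 637 CPM in BCR-ABL1 lines (log2 fold change 1.12 ± 0.20, SE, FDR 0.0193). DESeq2 did not call it (adjusted p = 0.0609). Pgam1, phosphoglycerate mutase, was at 71.1, 138 and 183 CPM with EV and at 234, 256 and 311 CPM in BCR-ABL1 lines. Neither gene overlapped between conditions, and in both EV 2C was the highest EV line. For Pgam1 the log2 fold change was 0.99 ± 0.20 (FDR 0.0455), the weakest of the calls: it was lost on leaving out any single line except EV 2C, with an FDR up to 0.0988, and DESeq2 did not make it (adjusted p = 0.221). The Pgam1 call was also lost with the line name as block and under both other gene filter settings.

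Eno1 and Pkm complete this stage. Eno1, the ubiquitous enolase, had a lowest of 148, a median of 185 and a highest of 365 CPM with EV and 423, 473 and 531 CPM in BCR-ABL1 lines. EV 2C gave the value of 365 CPM, while the other 5 EV lines were at most 188 CPM. The log2 fold change was 1.19 ± 0.19 (SE, FDR 0.0101), and 1.43 without EV 2C. Pkm, which makes pyruvate kinase of the muscle type, was at 300, 429 and 616 CPM with EV and at 803, 898 and 1198 CPM in BCR-ABL1 lines (log2 fold change 1.07 ± 0.16, FDR 0.0107). No EV line reached the lowest BCR-ABL1 line, and BCR-ABL1 2A was the highest of all. Counts per gene do not separate the spliced forms of Pkm.

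Gapdh, often taken as a reference gene, was not called. It was at a lowest of 322, a median of 531 and a highest of 615 CPM with EV and at 712, 788 and 884 CPM in BCR-ABL1 lines, again with no overlap, and the log2 fold change was 0.67 ± 0.14 (SE, FDR 0.407; against no change, FDR 0.00176). Gapdh has 91 near-identical copies in the genome, whose reads came to at most 2.99% of its own. Eno3, the muscle enolase, went the other way, at 6.22 to 12.1 CPM with EV and 3.82 to 6.41 CPM in BCR-ABL1 lines, a log2 fold change of -0.73 ± 0.19 (FDR 0.35; against no change, FDR 0.00761). The share of Eno1 in enolase reads per length was 79.8 to 95% in EV and 96.2 to 97.3% in BCR-ABL1 lines. Eno2 had at most 5 reads in any line.

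**Figure D2:**
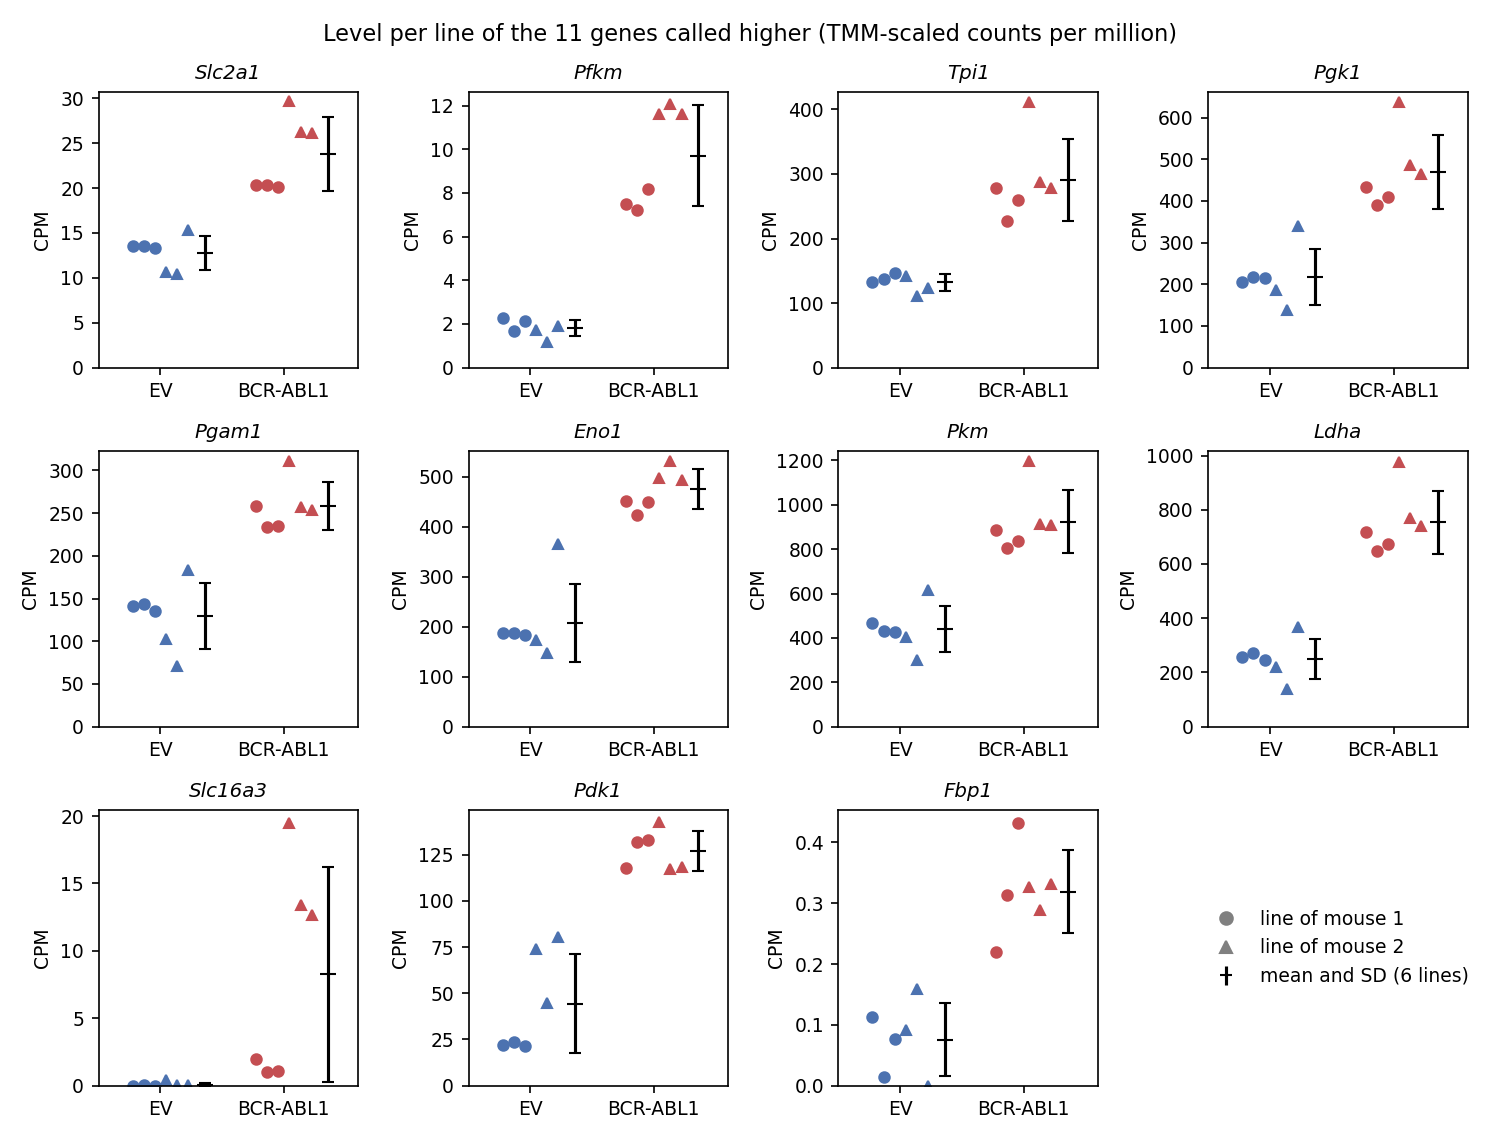
Level of the 11 genes called higher in each line (y axis, TMM-scaled CPM from 0, a separate scale per gene), with circles for lines of mouse 1, triangles for lines of mouse 2, and the mean and SD of the 6 lines beside each condition. No EV point reaches the lowest BCR-ABL1 point in any panel. The high EV triangle of Pgk1, Pgam1, Eno1, Pkm and Ldha is EV 2C.

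At the lactate step Ldha and Slc16a3 rose. Ldha, the lactate dehydrogenase subunit that favours lactate formation, had a lowest of 141, a median of 252 and a highest of 368 CPM with EV and 648, 728 and 975 CPM in BCR-ABL1 lines. The conditions were well apart, with EV 2C the highest EV line and BCR-ABL1 2A the highest line. The log2 fold change was 1.59 ± 0.20 (SE, FDR 0.000705), and it was called on leaving out any single line. In mouse 2 lines alone it was 1.78 with an FDR of 0.056. Ldhb, the other subunit, had at most 19 reads in any line, so that Ldha made up at least 99.8% of lactate dehydrogenase reads per length.

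Slc16a3 encodes the lactate exporter MCT4, which is known from cells with high lactate output. In EV lines it had 0, 1 and 0 reads in lines 1A, 1B and 1C and 13, 1 and 1 reads in lines 2A, 2B and 2C. In BCR-ABL1 lines it had 115, 47 and 47 reads in mouse 1 and 1011, 883 and 609 reads in mouse 2. The median was 0.0162 CPM with EV and 7.29 CPM in BCR-ABL1 lines, with a highest EV level of 0.399 CPM and a lowest BCR-ABL1 level of 0.982 CPM. All BCR-ABL1 lines lay above all EV lines, and those of mouse 2 (12.6 to 19.5 CPM) lay above those of mouse 1 (0.982 to 1.95 CPM). The fitted log2 fold change was 7.08 ± 0.97 (SE, FDR 0.00294). With so few reads in EV lines its size depends on the prior count. The SE is that of the difference of mean log2 CPM and not of the fitted change. Slc16a1, which encodes the broad monocarboxylate transporter MCT1, was by far the more abundant. It was at a lowest of 409, a median of 431 and a highest of 583 CPM with EV and at 500, 520 and 589 CPM in BCR-ABL1 lines, which overlapped (log2 fold change 0.19 ± 0.09, FDR 1). Per length, Slc16a3 reached 2.00 to 3.00% of the reads of both transporters in BCR-ABL1 lines of mouse 2 and 0.139 to 0.314% in those of mouse 1.

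The PFKFB enzymes set the level of the main activator of phosphofructokinase. None of the 4 genes was called by glmTreat (5.99% of all genes higher, 6.49% lower) or DESeq2 (5.29% and 4.33%). Nor did any pass the 1.5-fold test at an unadjusted p under 0.05, as 1473 and 1689 of all 15038 genes did. Against no change Pfkfb4 had an unadjusted p of 0.0252 (edgeR glmQLFTest, FDR 0.0516). Pfkfb3, the most abundant with 67.4 to 78.0% of the family's reads per length, had a lowest of 51.6, a median of 65.9 and a highest of 72.4 CPM with EV and 52.3, 60.2 and 66.8 CPM in BCR-ABL1 lines. These ranges overlapped nearly in full (log2 fold change -0.09 ± 0.10, FDR 1). Pfkfb1 ranged from 2.73 to 4.58 CPM and Pfkfb2 from 7.90 to 13.3 CPM over all lines. Pfkfb4 was lower with BCR-ABL1 in mouse 1 lines (2.39 to 2.73 CPM against 6.94 to 8.68 CPM, glmTreat FDR 4.37e-05) but not in mouse 2 lines (4.01 to 4.11 CPM against 2.61 to 4.63 CPM), and the changes differed by 1.75 on the log2 scale (interaction FDR 0.00168).

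Of the genes that govern pyruvate entry into the mitochondrion, Pdk1 alone was called among 7 tested. Of all genes 5.99% were called higher and 6.49% lower. Pdk1 encodes a pyruvate dehydrogenase kinase, which switches the dehydrogenase off. It was at a lowest of 21.5, a median of 34.1 and a highest of 80.3 CPM with EV and at 117, 125 and 143 CPM in BCR-ABL1 lines. The conditions did not overlap, but EV lines of mouse 1 (21.5 to 23.4 CPM) lay well below those of mouse 2 (44.8 to 80.3 CPM), whereas BCR-ABL1 lines of both mice were alike in range. The log2 fold change was 1.52 ± 0.36 (SE, FDR 0.0274), with 2.52 in mouse 1 and 0.94 in mouse 2 (FDR 0.211), a difference of -1.58 (interaction FDR 0.0015). The call was lost without EV 1B or BCR-ABL1 2A (FDR up to 0.0534). Pdk3 was at 11.4, 26.1 and 28.4 CPM with EV and at 26.5, 31.5 and 33.9 CPM in BCR-ABL1 lines. Per length Pdk3 was the most abundant of these kinases in every EV line except EV 2C. Its share was 77.9 to 80.0% in mouse 1 EV lines, 50.6% in EV 2A, 58.7% in EV 2B and 30.0% in EV 2C. Pdk1 was the most abundant in EV 2C (69.2%) and in every BCR-ABL1 line (54.8 to 59.9%). Pdk2 stayed under 0.6 CPM, at 0 to 0.0376 CPM in EV lines of mouse 1 and 0.135 to 0.596 CPM in all others, and Pdk4 had at most 4 reads in any line.

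The genes of the dehydrogenase itself and of the pyruvate carriers were not called. Pdha1, a catalytic subunit gene of the dehydrogenase, ranged from 120 to 145 CPM with EV and from 143 to 194 CPM in BCR-ABL1 lines (log2 fold change 0.35 ± 0.08, FDR 1; against no change, FDR 0.00349), with a larger change in mouse 2 by 0.42 (interaction FDR 0.023). Pdp1, a phosphatase that reactivates the dehydrogenase, ranged from 12.8 to 24.9 CPM over all lines. The carrier genes Mpc1 and Mpc2 ranged from 38.7 to 74.3 CPM and from 34.0 to 59.6 CPM. Mpc2 was highest in EV lines of mouse 2 (51.2 to 59.6 CPM), and its change differed between the mice by -0.61 (interaction FDR 0.0148).

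In the pentose phosphate pathway 0 of 4 genes were called by glmTreat, against 5.99% of all genes higher and 6.49% lower. DESeq2 called 0, against 5.29% and 4.33%. In the 1.5-fold test 0 passed at an unadjusted p under 0.05, against 1473 and 1689 of all 15038 genes. With 4 genes, 0 calls is near these shares. G6pdx, the gene of the entry enzyme that makes NADPH, had the smallest standard error of the tested members and ranged from 30.1 to 36.7 CPM with EV and from 28.3 to 30.3 CPM in BCR-ABL1 lines (log2 fold change -0.12 ± 0.04, FDR 1). Pgd, the second NADPH-forming enzyme, ranged from 54.3 to 79.0 CPM and from 54.1 to 77.9 CPM. In the branch without oxidation, Taldo1 ranged from 132 to 148 CPM with EV and from 124 to 159 CPM in BCR-ABL1 lines. Tkt, transketolase, was the exception in size, with 252 to 593 CPM with EV and 557 to 639 CPM in BCR-ABL1 lines, a log2 fold change of 0.60 ± 0.17 (FDR 0.677; against no change, FDR 0.00801), and EV 2C, at 593 CPM, was the only EV line within the range of the BCR-ABL1 lines.

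Fbp1 encodes fructose bisphosphatase, which runs the phosphofructokinase step in reverse. It was called higher at a very low level, from 0 to 0.159 CPM with a median of 0.0844 CPM with EV and from 0.22 to 0.432 CPM with a median of 0.32 CPM in BCR-ABL1 lines. These levels are at most 8 reads in an EV line and 13 to 19 reads in a BCR-ABL1 line. Fbp1 passed the filter on low counts only through the BCR-ABL1 lines, so its call is given as a description. The log2 fold change was 2.09 ± 0.40 (SE, FDR 0.0309), and the call was lost without EV 1B or 1C or without BCR-ABL1 1B, 1C, 2A, 2B or 2C (FDR up to 0.0593). It was also lost with the line name as block and without a gene filter.

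**Figure D3:**
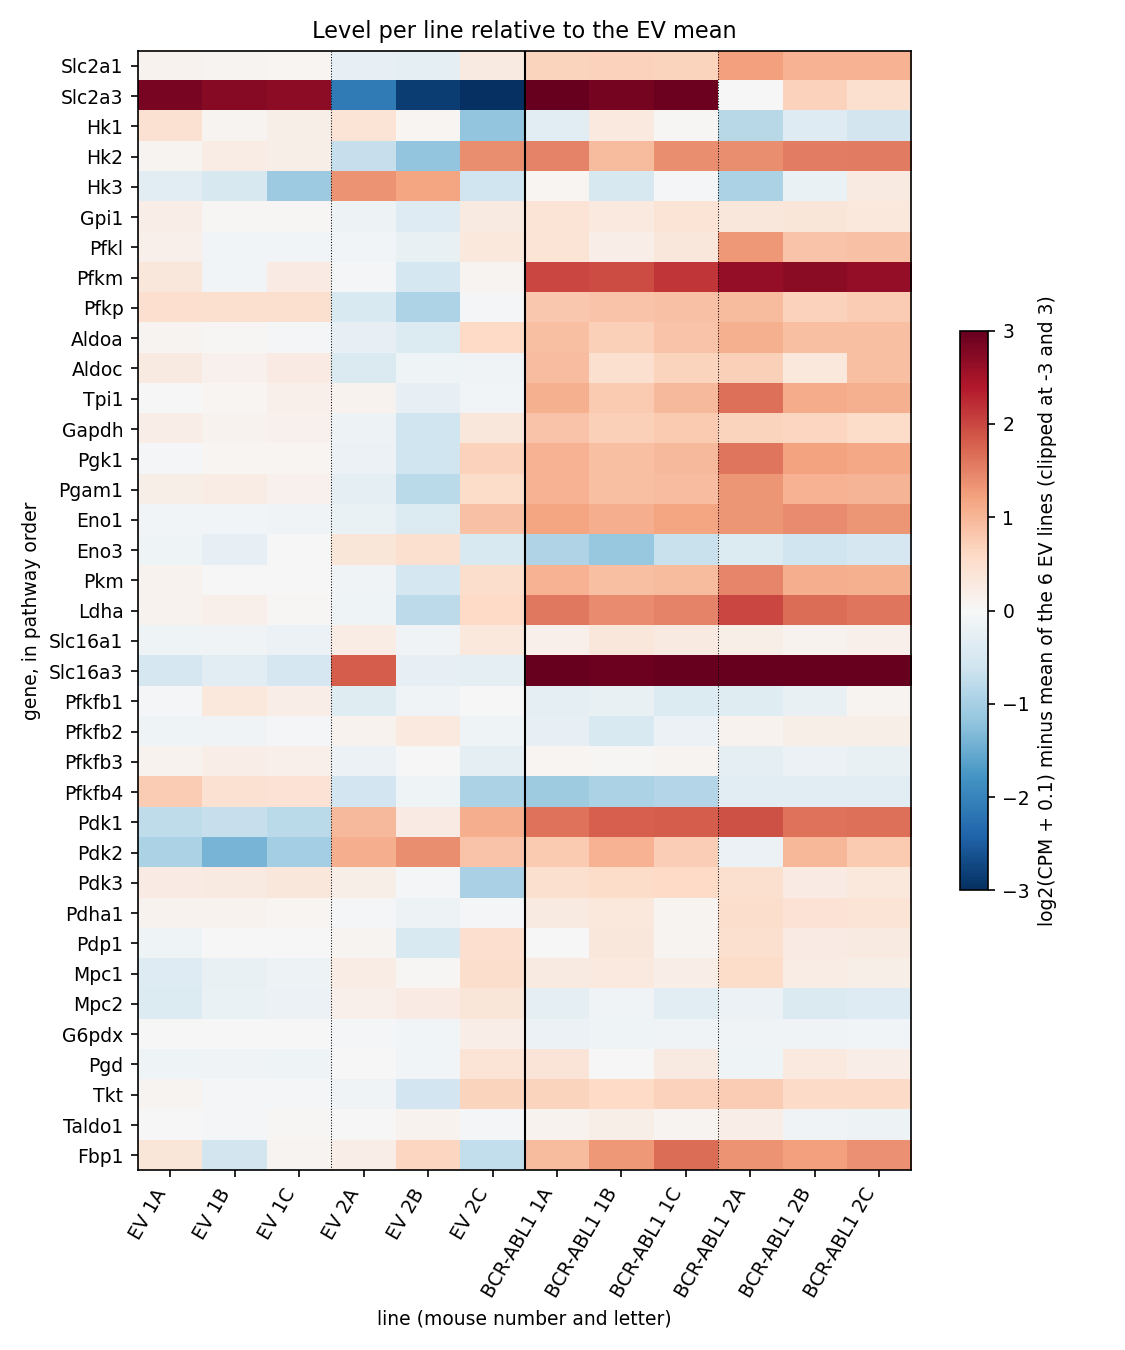
Level of each of the 37 tested genes in each line, as log2(CPM + 0.1) minus the mean of the 6 EV lines (colour, clipped at -3 and 3), with genes in pathway order and lines by condition and mouse. Red runs through most genes from Pfkm to Ldha in all 6 BCR-ABL1 columns, EV 2C is red for Hk2 and Eno1, and Slc2a3 separates the lines of the 2 mice.

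Per length of exon, the order of the abundant members changed. In EV lines the median level was highest for Gapdh, at 129 RPKM (reads per kilobase of exon, scaled to depth as CPM is), followed by Slc16a1 at 97.4, Pgk1 at 93.9, Pkm at 85.8 and Ldha at 76.1 RPKM. In BCR-ABL1 lines Ldha came first at 220 RPKM, followed by Pgk1 at 200, Gapdh at 191 and Pkm at 180 RPKM. The length used was that of all annotated exons of a gene together, 4133 bases for Gapdh and 2244 for Pgk1. It can exceed the length of the transcript made, so the order between genes depends on the annotation. In CPM the medians in BCR-ABL1 lines were 898 for Pkm, 788 for Gapdh, 728 for Ldha and 449 for Pgk1. Neighbours in these orders were not tested against each other.

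**Figure D4:**
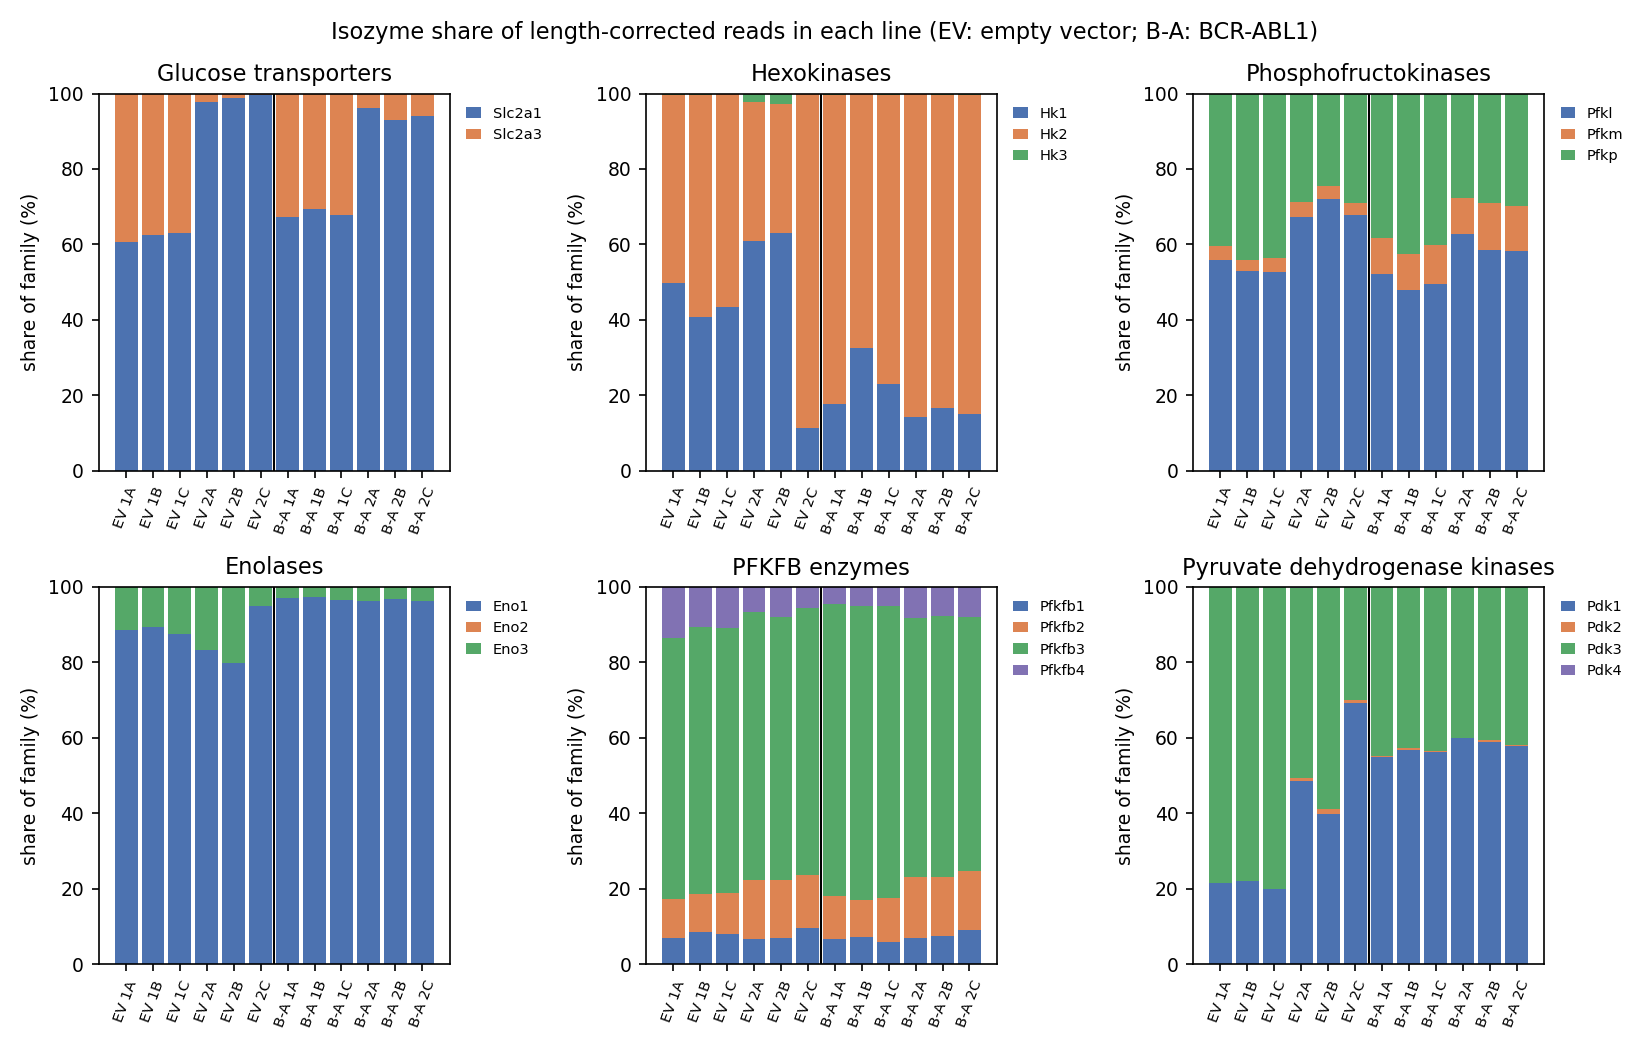
Share of each isozyme in the length-corrected reads of its family (y axis, percent) in each of the 12 lines, EV lines left and BCR-ABL1 lines right of the vertical line. The orange Hk2 share fills most of the hexokinase bar in EV 2C and in all BCR-ABL1 lines, the Pfkm band is wider in all BCR-ABL1 lines, and the glucose transporter bars differ by mouse, with Slc2a3 at 30.6 to 39.5% in mouse 1 lines and at most 6.90% in mouse 2 lines.

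Lines of the 2 mice were then compared. For 8 of the 37 members the BCR-ABL1 change differed between the mice (glmQLFTest of the interaction, FDR under 0.05), against 16.9% of all tested genes. The signed difference, the log2 fold change in mouse 2 minus that in mouse 1, was above 0 for Slc2a3, Pfkm, Pfkp, Pfkfb4 and Pdha1 and below 0 for Pdk1, Pdk2 and Mpc2. With mouse 1 alone 13 members were called higher, against 16.3% of all genes tested there, and 1 (Pfkfb4) was lower, against 12.2%. With mouse 2 alone 5 members were higher and 0 lower, against 3.99% and 2.65%. These were Slc2a1, Slc2a3, Pfkm, Tpi1 and Slc16a3. For Pgk1, Pgam1, Eno1, Pkm and Ldha no difference between the mice was called with all lines (interaction FDR 0.512 to 0.906), and their log2 fold changes were 1.16 to 1.78 in mouse 2 lines and 0.80 to 1.41 in mouse 1 lines. This rested on EV 2C, the highest EV line for all 5. Without it their changes were larger in mouse 2 by 0.42 to 0.87 (interaction FDR 0.00285 to 0.0288), and 19 of 37 members differed between the mice, the same 8 among them, against 36% of all genes. Beyond these 8 and 5, the members added were Slc2a1, Hk2, Hk3, Gpi1, Pfkl and Aldoa. Their interaction FDR was 0.00016 to 0.0407 without EV 2C and 0.058 to 0.968 with all lines.

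**Figure D5:**
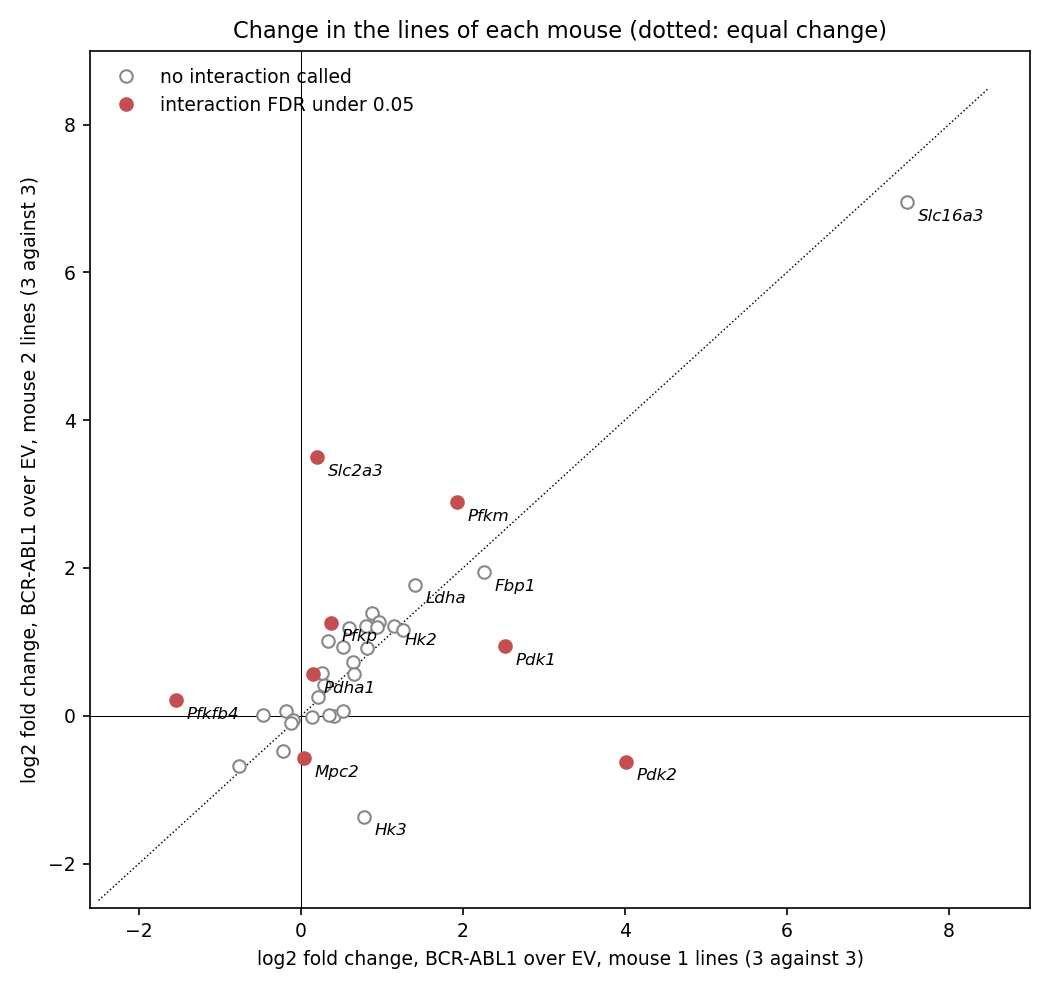
Log2 fold change of each tested gene in lines of mouse 1 (x axis) and of mouse 2 (y axis), 3 BCR-ABL1 against 3 EV lines each, with equal change on the dotted line. Filled points are the 8 genes with an interaction FDR under 0.05; Slc2a3 and Pfkm lie above the line, Pdk1 and Pdk2 below it.

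EV 2C was the highest EV line for 19 of the 37 tested members and for 7 of the 11 called ones, whereas this held for 24.6% of all tested genes. It was the lowest EV line for Slc2a3, Hk1, Eno3, Pfkfb3, Pfkfb4, Pdk3 and Fbp1. EV 2C lay below every BCR-ABL1 line for all 11 called members. Without EV 2C, 13 members were called higher, the same 11 with Hk2 and Aldoa added, and 0 lower, against 8.83% and 9.35% of all genes.

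Genes of cell division were compared as a measure of growth. Their summed level over 10 genes was 3649 to 5627 CPM with EV and 5509 to 6322 CPM in BCR-ABL1 lines, with the lowest values in EV lines of mouse 2. None of the 10 was called by glmTreat (5.99% of all genes higher, 6.49% lower) or DESeq2 (5.29% and 4.33%). None passed the 1.5-fold test at an unadjusted p under 0.05, as 1473 and 1689 of all 15038 genes did. All 10 had a log2 fold change above 0 (median 0.26). Against no change 5 were higher, where 22.5% of all genes were, and 4 were higher without overlap, where 12.1% of all genes were. The part of growth rate in the glycolysis result was not tested. The same holds for the T and NK markers, of which 3 of 8 could be tested and 2 of these 3, Cd3d and Trac, were called lower with BCR-ABL1, against 6.49% of all genes.

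The other genes of these pathways, 48 further genes (enzymes, isozymes, transporters and Bsg), showed no call with all lines. Of the 27 that could be tested, glmTreat called 0, against 5.99% of all genes higher and 6.49% lower. DESeq2 called 0, against 5.29% and 4.33%. In the 1.5-fold test at an unadjusted p under 0.05, 3 were higher and 1 lower, against 1473 and 1689 of all 15038 genes. Against no change 12 were higher and 4 lower, against 22.5% and 25.9% of all genes. Without EV 2C, 1 was called higher (Pdp2, FDR 0.0012, and 0.197 with all lines) and 1 lower (Pgls, FDR 0.0305, and 0.154 with all lines), against 8.83% and 9.35% of all genes, both named after their values were seen. With all lines the median log2 fold change of the 27 was 0.30, and 8 were higher without overlap and 3 were lower without overlap, against 12.1% and 13.5% of all genes. Their summed level was 1516 to 1644 CPM with EV and 1679 to 1825 CPM in BCR-ABL1 lines.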

How the data were processed

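RNA of 12 mouse lines was sequenced from stranded total RNA libraries. The authors deposited whole-number counts of reads per gene, neither normalized nor pooled. Per the submitters' processing notes, FastQC 0.11.5, Trimmomatic 0.36, TopHat2 2.1.1, Bowtie2 2.3.2, featureCounts 1.5.3, R 3.6.1 and edgeR 3.18.1 were used on GRCm38. The annotation release and the strand setting of the counting are not given in the sources used here, and reads of near-identical copies may be split.

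Low genes were removed by filterByExpr and libraries were scaled by TMM. The quasi-likelihood fit of edgeR 4.0.16 (R 4.3.3, with limma 3.58.1) had no block, and glmTreat tested each gene for a change beyond 1.5-fold, with Benjamini-Hochberg adjustment over all 15038 genes and a threshold of 0.05. An interaction term (glmQLFTest) tested whether the change differed between mice. The script was tested on simulated data. Levels are CPM scaled by TMM. Standard errors are those of the difference of mean log2 CPM (prior count 2). The log2 fold changes beside them are those of the edgeR fit. At low counts, as for Slc16a3, Fbp1 and Egln3, that difference and the fitted change need not be equal. Symbols, positions and exon lengths came from GENCODE M21, which held 51633 of the 51826 identifiers, and promoters from RefSeq (GRCm38.p6). The exon length of a gene was that of all its annotated exons together, also for the isozyme shares. Plots used matplotlib 3.10.9 in Python 3.11.15.

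No replicates agreed within sampling noise (chi-square per gene 9.36 to 434). EV and BCR-ABL1 lines share the names 1A to 2C, of which the labels tie the digit to the mouse. Deviations from condition means correlated at 0.0853 to 0.240 within a mouse and at -0.203 to -0.0636 between mice, and after removal of mouse means at -0.109 to 0.0856 for equal names, so the mouse was taken to pair the lines. Whether the letter names an experiment is not given in the sources used here. Lines of equal name did not deviate together beyond the mouse, and equal letters of different mice were not compared separately.

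Members and lists were chosen with earlier results of these data known. All members are named. The lowest, median and highest level are given for called members, for those whose conditions do not overlap and for the most abundant isozyme of each family, other members by range, and genes of the other lists only when called, up to the 5 largest changes per direction. Alternatives were RLE size factors, leaving the gene filter out or replacing it by CPM 1 or more in 6 or more lines, edgeR's likelihood ratio fit, DESeq2 1.42.0, a test against no change, the mouse or the line name as replicate block, each mouse alone, each line left out in turn, and shares without length correction.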

Additional observations from a re-analysis of the deposited data

Results flagged for a closer look

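Of 74 groups of 6 lines, 14 held a line far from the rest. Chance gives this in about 1 in 20 groups when the 6 values are independent. Here each group held 3 lines from each of 2 mice, so that rate is only a guide. Of the 14, 5 were in EV 2C and 6 in BCR-ABL1 2A. In EV 2C, Hk2 (82.9 CPM), Eno1 (365 CPM), G6pdx (36.7 CPM) and Pgd (79.0 CPM) were far above the other EV lines, and Hk1 (15.3 CPM) was far below them. BCR-ABL1 2A was far above the other BCR-ABL1 lines for Tpi1 (412 CPM), Pgam1 (311 CPM), Pkm (1198 CPM), Ldha (975 CPM) and Mpc1 (74.3 CPM), and far below them for Pdk2 (0.135 CPM). Single genes stood apart in BCR-ABL1 1B (Hk2, lowest at 61.6 CPM), in BCR-ABL1 2C (Pfkfb1, highest at 3.88 CPM) and in EV 2A (Slc16a3, highest EV line at 0.399 CPM).

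The log2 change with BCR-ABL1 in mouse 2 lines minus that in mouse 1 lines passed the interaction test for 8 of 37 members. Of all 15038 tested genes 16.9% passed it. It was 3.33 for Slc2a3, 0.96 for Pfkm, 0.89 for Pfkp, 1.75 for Pfkfb4 and 0.42 for Pdha1, and it was -1.58 for Pdk1, -4.63 for Pdk2 and -0.61 for Mpc2. Pdk2 rests on 0 to 2 reads in the EV lines of mouse 1. The cause of these differences was not tested.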

How the results depend on the processing

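RLE size factors and the mouse as replicate block called the same 11 members higher as reported, the block with 1126 higher and 1080 lower of all genes. The likelihood ratio fit called 10, with 1025 and 1003 of all genes. DESeq2 called 8, with 795 and 651. The line name as replicate block gave 8, with 923 and 765. Without a gene filter, and with the filter of CPM 1 or more in 6 lines, 8 were called. All these members were among the 11. Under the CPM filter Slc16a3 and Fbp1 were not tested. For RLE size factors and for both of these filter settings the shares over all genes are not given here. Their counts therefore describe the members alone. Against no change 20 members were higher and 1 (Eno3) lower, with 3389 and 3897 of all genes. With mouse 1 alone 13 were higher, Slc2a1 not among them, and 1 lower, with 2512 and 1877 of all genes. With mouse 2 alone 5 were higher, with 614 higher and 408 lower of all genes, and Pgk1, Pgam1, Eno1, Pkm, Ldha, Pdk1 and Fbp1 were not called. Leaving out each line in turn gave 7 (without EV 1B or BCR-ABL1 2A) to 13 (without EV 2C) members higher, and 807 to 1353 of all genes higher (as reported 901). It gave 4 (without EV 1A) to 19 (without EV 2C) members with a difference between the mice (as reported 8). Of all tested genes 36% differed between the mice without EV 2C and 16.9% as reported. Pfkm, Tpi1, Pgk1, Eno1, Pkm, Ldha and Slc16a3 kept their calls whichever line was left out. The log2 fold change, called in none of these, changed sign for Hk3 (0.78) and Mpc2 (0.035) in mouse 1 alone, for Slc16a1 (-2.63e-05), Pfkfb1 (0.0046), Pfkfb2 (0.058), Pfkfb4 (0.21), Pdk2 (-0.62) and Taldo1 (-0.012) in mouse 2 alone, and for Pfkfb2 on leaving out lines (-0.11 to 0.011). Without length correction the family share was 52.2% (EV) and 53.3% (BCR-ABL1) for Pfkp, 75.9% (EV) for Pfkfb3, 60.4% and 80.3% for Pdk1, 1.31% and 4.09% for Pfkm (with it 3.49% and 10.5%), 29.3% and 30.0% for Slc2a3 (19.7% and 18.7%), 39.2% and 19.5% for Pdk3 (62.6% and 42.2%), and 4.57% and 1.10% for Eno3 (12.7% and 3.33%). The cause of these shifts was not tested. Depth limits Slc16a3 in EV lines, Fbp1, Pdk2 and Hk3, since 3 reads are 0.0433 to 0.092 CPM; intervals of reads without molecular identifiers would cover counting error only.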

Other observations

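Genes of the hypoxia response were examined beside the glycolysis genes. Of 22 listed genes 20 were tested, 6 were called higher by glmTreat and 0 lower, against 5.99% and 6.49% of all genes. DESeq2 called 0 lower, against 4.33%. In the 1.5-fold test 0 were lower at an unadjusted p under 0.05, where 1689 of all 15038 genes were. Among the 6, Egln3 and Car9 passed the filter on low counts only through their reads in BCR-ABL1 lines, so these counts describe the genes tested. Against no change 9 were higher and 4 were lower, against 22.5% and 25.9% of all genes. The 4 lower genes, named after their values were seen, were Vhl, Egln2, Hif1an and Bnip3l, with log2 fold changes of -0.48 to -0.30, and Vhl was lower without overlap. The median log2 fold change of the 20 was 0.11. With the mouse as block 7 were called higher, against 7.49% of all genes, with Ankrd37 added (FDR 0.0104, and 0.18 with no block). Without EV 2C 7 were called higher, against 8.83%, with Vegfa added (FDR 2.1e-05, and 0.206 with all lines). Vegfa was at 239 CPM in EV 2C, while its range was 43.0 to 71.2 CPM over the other EV lines and 174 to 201 CPM with BCR-ABL1. Ankrd37 and Vegfa were named after their values were seen. Egln3, which encodes a prolyl hydroxylase of the hypoxia-inducible factors, ranged from 0 to 0.797 CPM in EV and from 2.98 to 10.8 CPM in BCR-ABL1 lines (log2 fold change 5.59 ± 0.74, SE, FDR 0.00284). It had 0, 1, 1, 26, 2 and 6 reads in EV lines and 176 to 623 in BCR-ABL1 lines, so the size of this change depends on the prior count. Bnip3, a mitophagy receptor, ranged from 15.0 to 23.7 CPM and from 47.3 to 111 CPM (1.92 ± 0.24, FDR 0.000415). P4ha1, a collagen prolyl hydroxylase subunit, ranged from 4.52 to 37.4 CPM and from 71.7 to 96.5 CPM (2.21 ± 0.58, FDR 0.0239), and its change differed between the mice (interaction FDR 4.34e-05). The carbonic anhydrases Car12 (0.953 to 7.30 CPM against 11.5 to 15.4 CPM) and Car9 (0.0433 to 0.559 CPM against 0.773 to 1.20 CPM) were called as well. None of these 5 genes overlapped between conditions. The other called gene, Higd1a, named here beyond the 5 largest changes, did not overlap either (1.09 ± 0.14, FDR 0.0046). Of the 20 tested genes 6 were higher and 1 lower without overlap, against 12.1% and 13.5% of all genes.

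Of 25 genes of the tricarboxylic acid cycle 24 were tested, and glmTreat called 1 higher and 0 lower, against 5.99% and 6.49% of all genes. At an unadjusted p under 0.05, 2 were higher and 1 lower, against 1473 and 1689 of all 15038 genes. Idh2, the mitochondrial NADP-dependent isocitrate dehydrogenase, ranged from 1.66 to 10.6 CPM in EV and from 42.1 to 91.3 CPM in BCR-ABL1 lines (log2 fold change 2.85 ± 0.44, SE, FDR 0.000466). DESeq2 called 1 gene lower, against 4.33% of all genes, and the likelihood ratio fit 1, against 1003 of all 15038 genes. With the mouse as block Aco1 was also higher (FDR 0.01) and Me3 lower (FDR 0.00041), against 7.49% and 7.18% of all genes. Both were named after their values were seen, and with no block their FDR was 0.589 and 0.0753. Without EV 2C, 2 genes were higher, Idh2 and Me2 (FDR 0.00972, and 0.0686 with all lines), and Me3 was lower (FDR 0.0333), against 8.83% and 9.35% of all genes, Me2 also being named after its values were seen. The median log2 fold change of the 24 was 0.14.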
